A study of Mus musculus with 6 samples.

Results

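The subunit genes of the proteasome were described in splenic CD4 T cells of NOD mice, sorted as a total population. The genes were taken as every row of the deposited table whose Ensembl identifier belongs, in GENCODE M21 on GRCm38, to a protein-coding gene with a symbol starting Psma, Psmb, Psmc, Psmd, Psme, Psmf or Psmg and a number. This gave 49 of the 28914 genes in the table. Of these, 14 encode constitutive core subunits, 3 the inducible immunoproteasome subunits Psmb8, Psmb9 and Psmb10, 26 the regulatory particles, their assembly chaperones, activators and an inhibitor, and 4 the core assembly chaperones. The pattern also caught Psma8, a core subunit known from testis, and Psmc3ip, which encodes a meiotic recombination factor and is no proteasome subunit. Psmb11, a core subunit of thymic epithelium, had no row in the table and so was not analysed here.

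The proteasome is the protease complex that degrades proteins marked with ubiquitin. Its barrel-shaped core is built from rings of alpha subunits, which gate the entrance, and rings of beta subunits, of which Psmb5, Psmb6 and Psmb7 carry the catalytic sites. In lymphocytes, and in other cells exposed to interferon, these are replaced in newly assembled particles by Psmb8, Psmb9 and Psmb10, and the resulting immunoproteasome yields peptides suited to MHC class I. Caps on the ends of the barrel unfold and admit the substrate: the regulatory particle with its ATPases (Psmc) and non-ATPase subunits (Psmd), or the activators of the Psme genes.

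RNA sequencing covered 6 libraries in 3 groups of 2, all from mice aged 12 weeks of the NOD strain, which is prone to autoimmune diabetes, and all from cells given no further stimulation of the T cell receptor. BTg cells are labelled as overexpressing Blimp-1, the transcriptional repressor encoded by Prdm1. CKO cells are labelled Blimp-1 knockout, and WT cells are the controls. The labels name neither the promoter of the transgene, nor the driver of the deletion, nor the deleted exons. Whether the pair of libraries in a group stems from different animals is likewise not stated, and every p-value rests on the spread between libraries, which may be technical. Values are the authors' FPKM, reads scaled to gene length and to the reads counted on genes in each library.

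The libraries held 14958458 to 17799091 reads recovered from the FPKM. Prdm1 stood at 19.6 and 30.1 FPKM in BTg, 0.849 and 0.669 in CKO and 0.458 and 0.628 in WT. Both libraries labelled CKO thus lay slightly above both WT libraries, against the direction of the label, with a log2 difference of 0.19 (SE 0.26, limma adjusted p = 1). Which exons the reads come from was not analysed here. CD4 T cell markers (Cd3d, Cd3e, Cd3g, Cd4 and Trac) summed to 3329.7 and 2907 RPM (reads scaled to the library total) in BTg, 1659 and 2425 in CKO and 3229 and 2256 in WT. CKO replicate 1 stood apart: 8 neutrophil markers summed to 13089.6 RPM there, against 389 in CKO replicate 2 and 78.0 to 318 in the BTg and WT libraries. In the same library 6 plasma cell markers summed to 5707 RPM, 6 monocyte and macrophage markers to 1190.5 and 6 B cell markers to 98.8. In the other 5 libraries these 3 sums reached at most 1439, 202 and 62.3. No marker of these lists was at 0 in all 6 libraries. Reads of other cells and a changed level within CD4 T cells cannot be told apart in these bulk samples.

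Proteasome genes were abundantly expressed in every library. Together the 49 genes took 0.557% and 0.454% of reads in BTg, 0.777% and 0.519% in CKO and 0.588% and 0.519% in WT. To set one gene beside another, levels were recomputed per merged exon length, because the deposited FPKM divide by a length that includes introns. Merged exon length joins the exons of every annotated transcript and can far exceed the coding length. For Psmb8 it was 3381 bases, with a coding length of 828, and for Psme2 1764, with 717. The order of genes given here therefore depends on the annotation. By reads Psmb8 was above Psme2 in every library, at 6181 against 4184 in BTg replicate 1. Per exon length the highest level over the 6 libraries was that of Psme2, a subunit of the interferon-inducible activator PA28, with a mean of 146 FPKM. Psma6, an alpha subunit, followed at 109.7, Psmb8 at 109.1 and Psme1, the partner of Psme2, at 99.2 FPKM per exon length. Psma6 ranged from 77.8 to 141, Psmb8 from 77.7 to 141 and Psme1 from 88.1 to 119.7 FPKM per exon length over the libraries, so these 3 neighbours did not differ beyond their spread. Psme2 ranged from 112 to 200.1, and its range overlapped theirs. Within each of the 6 libraries, however, Psme2 was above Psma6, Psmb8 and Psme1 per exon length. The lowest subunits of the regulatory particle per exon length were Psmd1, at 12.9, and Psmd11, at 13.0, subunits of its base and its lid. Psma8 had 10 and 8 reads in BTg, 65 and 36 in CKO and 10 and 30 in WT. It was the member left out by the filter on low values, which asked for at least 1 FPKM in at least 2 libraries and kept the other 48.

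**Figure D1:**
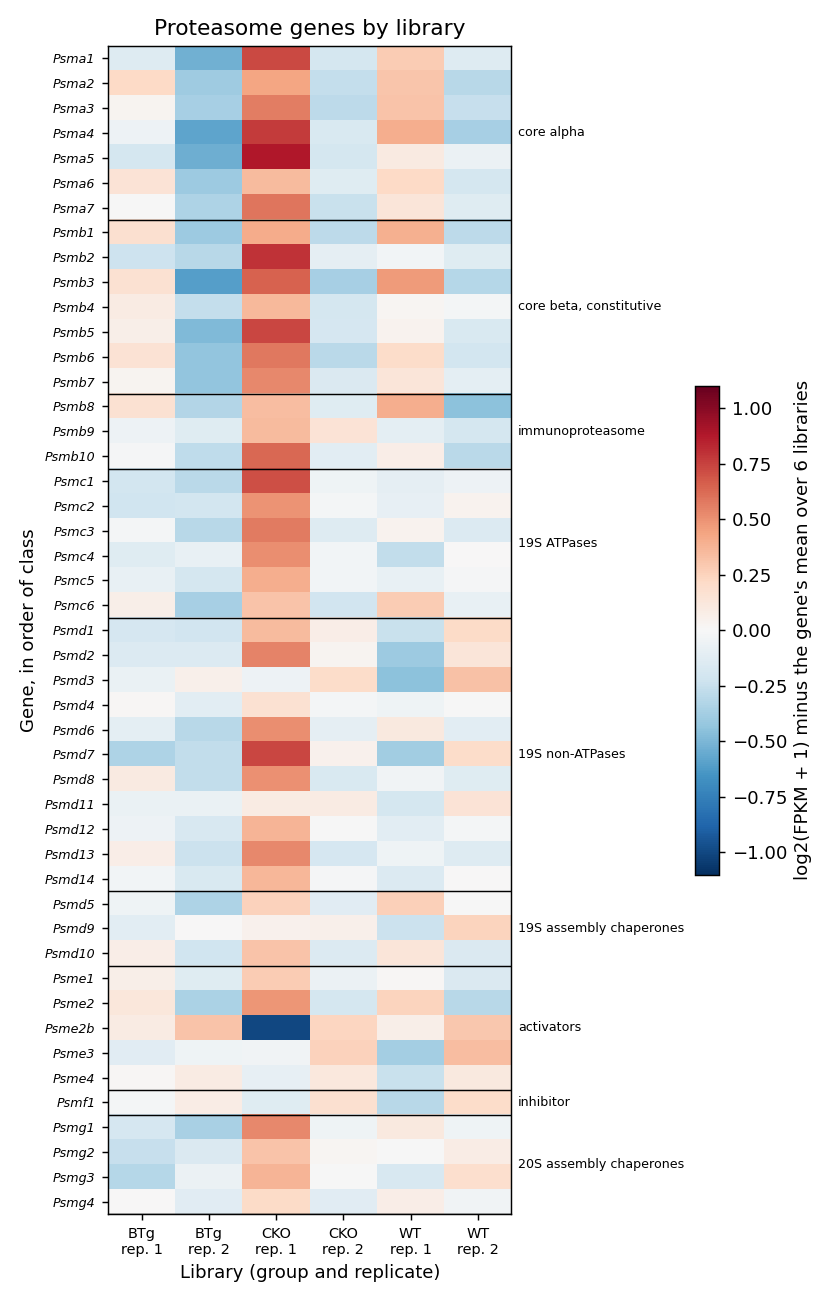
Colour shows log2(FPKM + 1) in each library (columns, BTg, CKO and WT with replicates 1 and 2) minus the gene's mean over the 6 libraries, for 47 genes in order of class (rows). All 14 constitutive core genes are highest in CKO replicate 1 and lowest in BTg replicate 2.

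The comparison of BTg with CKO sets raised Blimp-1 against its labelled absence. The proteasome genes lay lower in BTg than in CKO almost throughout: 45 of the 48 tested genes had a lower group mean on the log2(FPKM + 1) scale, with a median log2 difference of -0.30, against 43.9% lower and a median of 0.06 over all 10798 genes tested. No proteasome gene passed the test. By limma, 0 of 48 had adjusted p under 0.05, against 0.0185% of all genes, and 0 had unadjusted p under 0.05, against 8.79%. Limma voom on recovered reads also called 0 of 49, against 0.044% of all genes, with 1 member at unadjusted p under 0.05, Psma8. Both BTg libraries were below both CKO libraries for 19 of 48 proteasome genes (39.6%), against 21.8% of all genes.

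These 19 were 4 of the 6 ATPases, 7 of the 11 non-ATPase subunits and 1 of the 3 chaperones of the regulatory particle, 3 of the 4 core assembly chaperones, 1 of the 5 activators, 1 of the 3 immunoproteasome genes, 1 of the 7 constitutive beta subunits, 0 of the 7 alpha subunits and Psmc3ip. Differences between the classes were not tested. Psmg1, a chaperone that starts assembly of the alpha ring, had the smallest p of the members. It stood at 2.48 and 2.08 FPKM in BTg, against 4.72 and 2.83 in CKO, a log2 difference of -0.52 (SE 0.25, limma adjusted p = 0.611). The groups did not overlap, and CKO replicate 1 was the high library.

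Psmd7, which pairs with the deubiquitinase Psmd14 in the lid of the regulatory particle, had 18.1 and 19.05 FPKM in BTg and 39.3 and 23.9 in CKO. Its log2 difference was -0.69 (SE 0.35, 95% interval -1.56 to 0.17, limma adjusted p = 0.63). Psmb2, a beta subunit without a catalytic site, had 2.03 and 1.87 FPKM in BTg and 5.15 and 2.32 in CKO, a log2 difference of -0.62 (SE 0.31, limma adjusted p = 0.63). For both genes the BTg libraries lay close together, while CKO replicate 1 lay far above CKO replicate 2.

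The member with the largest log2 difference among the alpha subunits was Psma5, at 4.62 and 3.44 FPKM in BTg and 10.9 and 4.62 in CKO, a difference of -0.71 (SE 0.38). Among the ATPases, which unfold substrates, it was Psmc1, at 22.6 and 21.2 FPKM in BTg and 43.6 and 25.4 in CKO, a difference of -0.58 (SE 0.33). Psmd5, a chaperone of ATPase assembly, had a log2 difference of -0.26 (SE 0.26), from 8.59 and 6.84 FPKM in BTg and 10.8 and 8.08 in CKO. Limma adjusted p was 0.637, 0.654 and 0.772 for these 3 genes. CKO replicate 1 again held the highest of the 4 values of each gene, and Psma5 and Psmd5 overlapped between BTg and CKO.

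The size of the difference varied with the libraries used. Without CKO replicate 1, 32 of 48 genes were lower in BTg and the median was -0.07; the core median was then 0.04 and the median of the regulatory genes -0.10. Without CKO replicate 2, 44 of 48 were lower, with a median of -0.55 and a core median of -0.75. Without BTg replicate 2 the median of the 48 was -0.17. Between the libraries numbered 2 alone, which leaves out CKO replicate 1 and BTg replicate 1 together, BTg was lower for 46 of 48, and the median was -0.16. Over all genes tested it was lower for 5609 of 10798 there, with a median of -0.01. For counts with a library left out, in this and the other comparisons, no share over all genes is given. Neutrophil, plasma cell, monocyte and B cell markers were also highest in CKO replicate 1, as given above. The sum of 10 cell cycle genes was 702 and 830.2 RPM in BTg, 2536 and 1695 in CKO and 697 and 1934 in WT, and each of the 10 was lower in both BTg than in both CKO libraries. The sum of 5 erythroid markers was 109 and 171 RPM in BTg, 389 and 609.7 in CKO and 93.5 and 974 in WT, and each of the 5 was likewise lower in both BTg than in both CKO libraries. Over all genes tested 21.8% were lower in this way. The tested neutrophil (8 of 8), plasma cell (4 of 4), monocyte and macrophage (4 of 4) and B cell markers (2 of 2) were too. All 5 CD4 T cell markers were higher in both BTg than in both CKO libraries, against 17.8% of all genes. The part of these cells and genes in the result was not tested.

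BTg against WT sets raised Blimp-1 against the control cells. Of 48 genes 39 were lower in BTg, with a median log2 difference of -0.10, against 45.5% lower and a median of 0.02 over all genes tested. By limma 0 of 48 had adjusted p under 0.05 (0.0185% of all genes) and 0 had unadjusted p under 0.05 (1.62% of all genes); limma voom called 0 of 49, against 0.0251% of all genes, with 0 members at unadjusted p under 0.05. Both BTg libraries were below both WT libraries for 8 of 48 genes (16.7%), against 10.4% of all genes, and above both for 0 of 48, against 14.7%. These 8 were Psma1, Psma5, Psmb2, Psmc1, Psmc2, Psmd5, Psmg1 and Psmg2. Psmc2 was named after its values were seen.

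All 14 constitutive core genes and all 4 core assembly chaperones had a lower mean in BTg than in WT, with median log2 differences of -0.18 and -0.22. The 3 smallest p belonged to assembly factors. Psmd5 had 8.59 and 6.84 FPKM in BTg and 10.9 and 8.84 in WT, with a log2 difference of -0.32 (SE 0.26). Psmg2, the partner of Psmg1, had 3.08 and 3.35 FPKM in BTg and 3.87 and 4.15 in WT, a difference of -0.25 (SE 0.20). Psmg1 had 2.48 and 2.08 FPKM in BTg and 3.26 and 2.83 in WT, a difference of -0.30 (SE 0.25). For each of these 3 genes the groups did not overlap, and limma adjusted p was 1.

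Among the core genes Psma1, an alpha subunit, stood at 23.6 and 17.8 FPKM in BTg and 31.9 and 23.6 in WT, with a log2 difference of -0.40 (SE 0.40, limma adjusted p = 1). The lower WT library and the higher BTg library were nearly equal. Psmb3, a structural beta subunit, had 41.2 and 23.7 FPKM in BTg and 51.0 and 29.3 in WT, with a log2 difference of -0.30 (SE 0.50, limma adjusted p = 1), and its groups overlapped. Psmc6, an ATPase, had 11.2 and 8.08 FPKM in BTg and 13.2 and 10.01 in WT, a difference of -0.25 (SE 0.31, limma adjusted p = 1). Psmd7, with 18.1 and 19.05 FPKM in BTg and 17.6 and 26.9 in WT, had a difference of -0.22 (SE 0.35, limma adjusted p = 1), and both genes overlapped between BTg and WT. Without BTg replicate 2, 25 of the 48 members were lower and 23 higher, with a median of -0.0031; without BTg replicate 1, 42 were lower, with a median of -0.20. The core median turned to 0.05 without BTg replicate 2 and to 0.01 without WT replicate 1, and it was -0.43 without BTg replicate 1 and -0.36 without WT replicate 2.

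In CKO against WT the members lay higher in CKO: 45 of 48 had a higher mean, with a median log2 difference of 0.18, against 45.4% higher and a median of -0.03 over all genes. By limma 0 of 48 had adjusted p under 0.05 (0% of all genes) and 0 had unadjusted p under 0.05 (4.2% of all genes). Limma voom called 0 of 49, against 0% of all genes, with 0 members at unadjusted p under 0.05. Both CKO libraries were above both WT libraries for 3 of 48 genes (6.25%), Psmb9, Psmc1 and Psmd12, against 11.5% of all genes, and below both for 0 of 48, against 8.96%. Psmd12, a lid subunit of the regulatory particle, was named after its values were seen. CKO replicate 1 was the highest of the 6 libraries for 39 of the 48 members, against 23.0% of all genes.

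Psmb9 had 73.1 and 63.7 FPKM in CKO and 53.2 and 50.05 in WT, and its log2 difference was 0.40 (SE 0.27, 95% interval -0.27 to 1.06, limma adjusted p = 1). Psmb2 had 5.15 and 2.32 FPKM in CKO and 2.48 and 2.24 in WT, a difference of 0.43 (SE 0.31), with limma adjusted p = 1. Psmd7 had 39.3 and 23.9 FPKM in CKO and 17.6 and 26.9 in WT, a difference of 0.48 (SE 0.35, limma adjusted p = 1). Psmb2 and Psmd7 overlapped between the groups, and only their CKO replicate 1 values were above all WT values. Psmc1 had 43.6 and 25.4 FPKM in CKO and 24.4 and 25.2 in WT, so that the second CKO library exceeded the higher WT library by a small margin, with a log2 difference of 0.41 (SE 0.33, limma adjusted p = 1). Psmd10, a chaperone of ATPase assembly, had 5.14 and 3.43 FPKM in CKO and 4.40 and 3.41 in WT, a difference of 0.10 (SE 0.26). Psma5, at 10.9 and 4.62 FPKM in CKO and 5.90 and 5.15 in WT, had a difference of 0.33 (SE 0.38). Psmg1, at 4.72 and 2.83 FPKM in CKO and 3.26 and 2.83 in WT, had a difference of 0.21 (SE 0.25). These 3 genes overlapped between CKO and WT, and limma adjusted p was 1 for each. Without CKO replicate 1, 19 of 48 genes were higher and 29 lower, with a median of -0.05. Without CKO replicate 2, 44 of 48 were higher, with a median of 0.47 and a core median of 0.58. The core median was -0.23 without CKO replicate 1, and without WT replicate 2 it was -0.03.

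**Figure D2:**
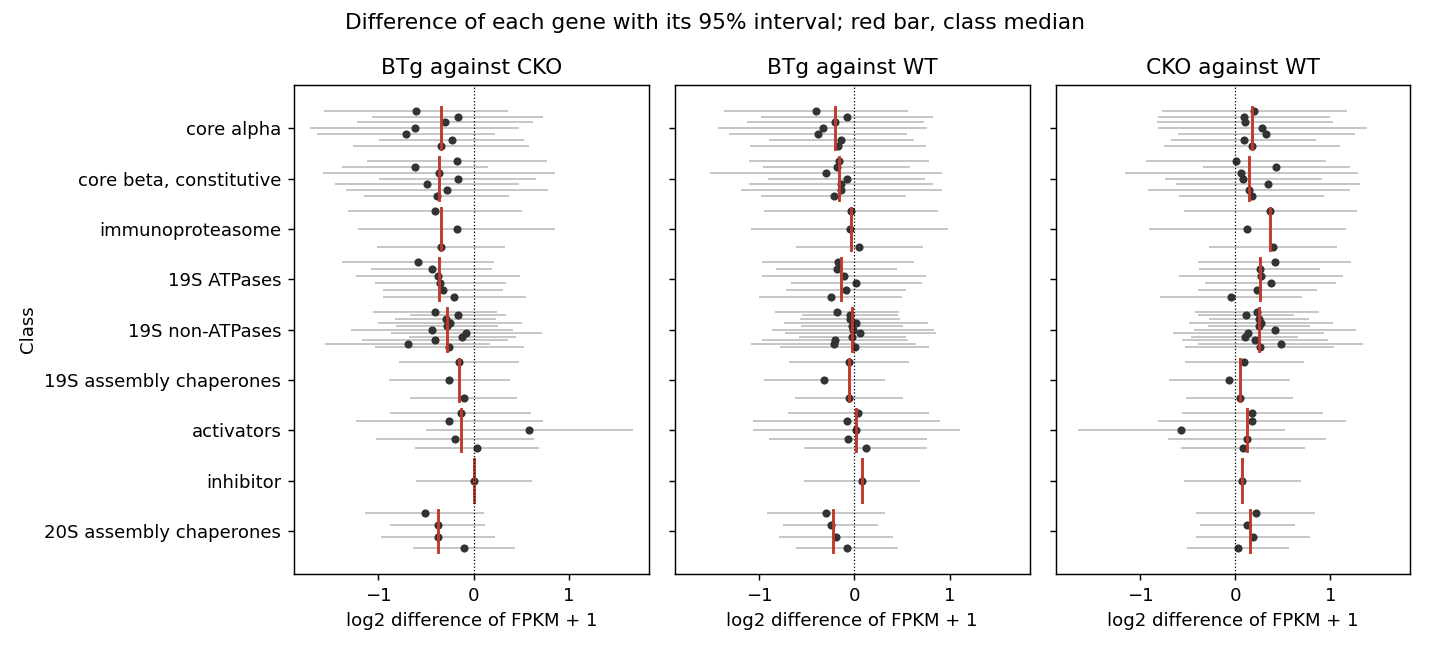
Each point is the log2 difference of FPKM + 1 of 1 gene (horizontal axis) with its 95% interval from limma, by class (vertical axis), for BTg against CKO, BTg against WT and CKO against WT; the red bar is the class median. Every interval crosses 0, and the medians of the core classes lie below 0 in both comparisons of BTg and above 0 in CKO against WT.

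The comparisons share groups: BTg, CKO and WT each enter a pair of them. Their directions are therefore not separate observations.

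The spread within groups was itself ordered by class. In each of the 3 groups replicate 1 exceeded replicate 2 for all 14 constitutive core genes and all 3 immunoproteasome genes. Over all genes tested, 14.9% were higher in replicate 1 in all 3 groups and 45.7% were higher in replicate 2 in all 3. The median gap of the core genes, replicate 1 minus replicate 2 on the log2(FPKM + 1) scale, was 0.49 in BTg, 0.87 in CKO and 0.41 in WT. That gap was wider than the median difference of the core genes between any 2 groups. Psmb3, whose gap was the widest of the core genes in BTg and WT and second to that of Psma5 in CKO, had 41.2 and 23.7 FPKM in BTg, 57.9 and 28.2 in CKO and 51.0 and 29.3 in WT. The narrowest core gap was 0.08 for Psmb2 in BTg, 0.47 for Psma6 in CKO and 0.04 for Psmb4 in WT.

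In the other classes the order of the libraries was mixed. Of the 3 chaperones of the regulatory particle 2, Psmd5 and Psmd10, were higher in replicate 1 in all groups. The 11 non-ATPase subunits of the regulatory particle had median gaps of 0.12 in BTg, 0.38 in CKO and -0.16 in WT, and 3 of them were higher in replicate 1 in all groups. Psmd3, a lid subunit, went against the core, with 12.5 and 13.8 FPKM in BTg, 12.7 and 15.3 in CKO and 9.37 and 16.8 in WT; it was named after its values were seen. In 6 genes replicate 2 was higher in all 3 groups, and these were Psmd3, Psmd9, Psme2b, Psme3, Psme4 and Psmf1, Psmd9 likewise being named after its values were seen.

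Between the libraries numbered 2, whose neutrophil markers summed to 82.1 RPM in BTg, 389 in CKO and 318 in WT, the core median was -0.23 for BTg against CKO, -0.22 for BTg against WT and -0.05 for CKO against WT. Between those numbered 1 it was -0.52, -0.16 and 0.38 for the same comparisons. In BTg against CKO 44 of the 48 members were lower at both numbers, among them all 14 core, all 3 immunoproteasome and 23 of 26 regulatory genes, against 3661 of all 10798 genes. In BTg against WT 25 of 48 members were lower at both numbers, among them 12 of 14 core, 0 of 3 immunoproteasome and 8 of 26 regulatory genes, against 2644 of 10798. The labels do not say that a shared number marks a shared batch.

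Coding length went along with the gap. Across the 48 members Spearman's rho of the gap with the longest coding length was -0.25 in BTg, -0.21 in CKO and -0.39 in WT, and across 8421 protein-coding genes it was -0.50, -0.46 and -0.38. These are descriptions across genes that share the libraries. The 7 alpha subunits have coding lengths of 702 to 789 bases and the 7 constitutive beta subunits of 603 to 831, against 930 to 2859 for the 11 non-ATPase subunits. Short coding sequences did not always go with a positive gap: Psmd9 (666 bases), Psme2b (717), Psme3 (762) and Psmf1 (813) were higher in replicate 2 in every group, and Psmg3 (366) and Psmg2 (792) were mixed. The part of length in the gap was not tested.

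**Figure D3:**
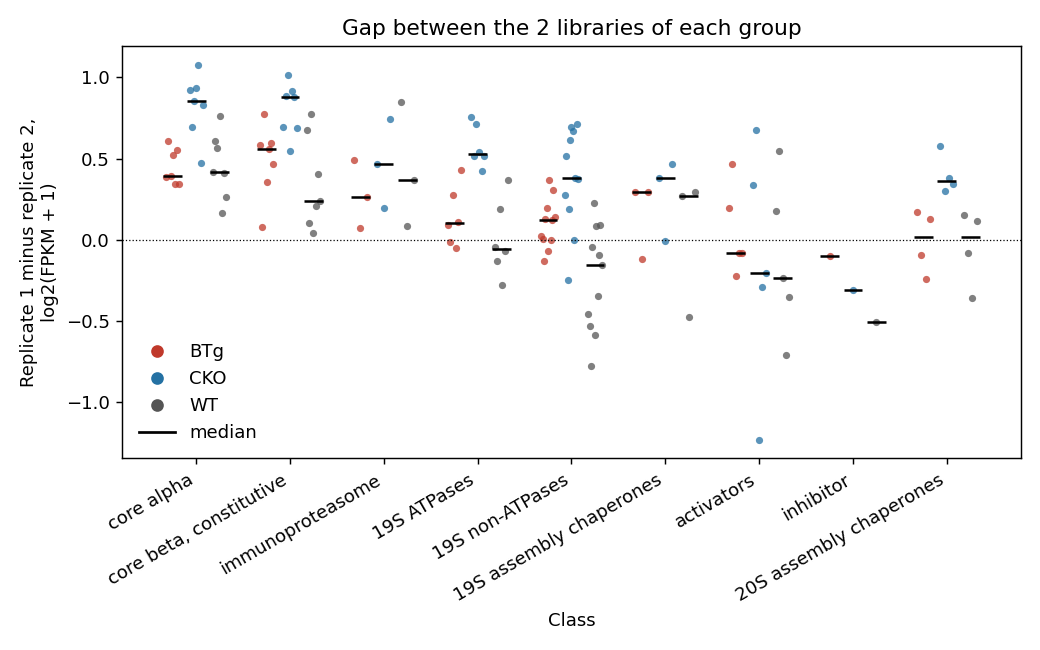
Each point is 1 gene's log2(FPKM + 1) in replicate 1 minus that in replicate 2 (vertical axis), by class (horizontal axis) and group (colour); the black bar is the median. All core and immunoproteasome points lie above 0, while the points of the activators and of the regulatory particle in WT lie on both sides.

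None of the inducible catalytic subunits passed the test in any comparison. Psmb8 (chr17:34197721-34201454, plus strand), which replaces Psmb5, had 132 and 93.1 FPKM in BTg, 148 and 107 in CKO and 154 and 85.3 in WT. The WT libraries held both the highest and the lowest value of the 6. Its log2 difference was -0.18 (SE 0.42) for BTg against CKO, -0.05 (SE 0.42) for BTg against WT and 0.13 (SE 0.42) for CKO against WT, with limma adjusted p = 0.893, 1 and 1; the 95% interval for BTg against WT ran from -1.08 to 0.98. The direction for Psmb8 in both comparisons with CKO turned under quantile normalization.

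Psmb9 (chr17:34181987-34187764, minus strand), which replaces Psmb6, had 55.0 and 52.1 FPKM in BTg, 73.1 and 63.7 in CKO and 53.2 and 50.05 in WT. It was the member of this class whose CKO libraries stood clear of all others, and its replicates lay closer together than those of Psmb8 and Psmb10. For BTg against CKO its log2 difference was -0.34 (SE 0.27, limma adjusted p = 0.727) and for BTg against WT 0.05 (SE 0.27, limma adjusted p = 1). Psmb9 shares exon sequence with Tap1, the peptide transporter gene on the opposite strand, and no strand setting is known, which leaves the split of reads between this pair uncertain. Tap1 had 40.7 and 53.4 FPKM in BTg, 34.8 and 55.7 in CKO and 35.6 and 47.8 in WT, a pattern unlike that of Psmb9.

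Psmb10 (chr8:105935735-105938444, minus strand), which replaces Psmb7, had 84.1 and 70.0 FPKM in BTg, 132 and 78.4 in CKO and 89.4 and 69.0 in WT. CKO replicate 1 was high and the other 5 libraries lay between 69.0 and 89.4. The log2 difference was -0.40 (SE 0.37, limma adjusted p = 0.752) for BTg against CKO, -0.03 (SE 0.37, limma adjusted p = 1) for BTg against WT and 0.37 (SE 0.37, limma adjusted p = 1) for CKO against WT. Without CKO replicate 1 the last of these was -0.0035.

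The constitutive counterparts varied more between the replicates of BTg and of CKO than between any pair of groups. Between the WT replicates this held for Psmb6 only. The WT gap was 0.21 for Psmb5 and 0.24 for Psmb7, and their log2 differences for BTg against CKO were -0.49 and -0.39. Psmb5 had 23.1 and 15.4 FPKM in BTg, 37.3 and 19.2 in CKO and 22.6 and 19.4 in WT. Psmb6 had 125 and 82.5 FPKM in BTg, 168 and 90.8 in CKO and 129 and 97.0 in WT. Psmb7 had 1.77 and 1.001 FPKM in BTg, 2.92 and 1.43 in CKO and 1.97 and 1.52 in WT. All 3 overlapped between every pair of groups, and in all 3 CKO replicate 1 was the highest library and BTg replicate 2 the lowest.

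**Figure D4:**
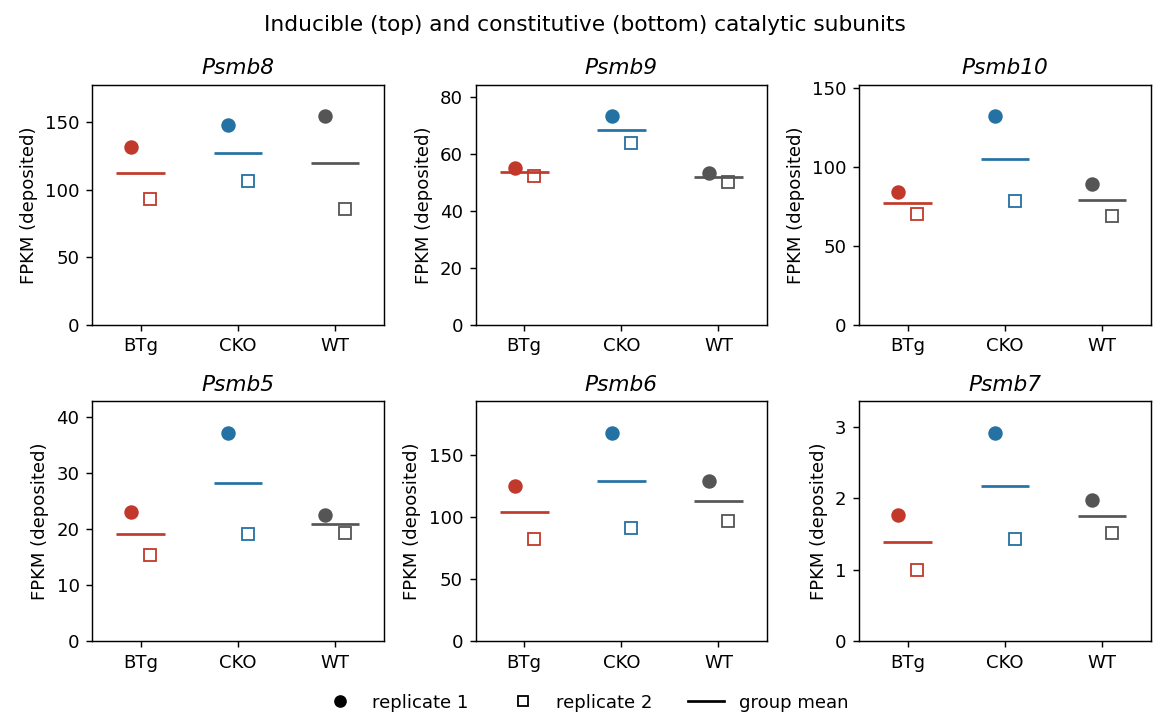
Deposited FPKM (vertical axis) of the 3 inducible catalytic subunits (top) and their constitutive counterparts (bottom) in BTg, CKO and WT (horizontal axis); filled circles are replicate 1, open squares replicate 2 and lines group means of 2 libraries. Psmb9 in CKO, at 73.1 and 63.7 FPKM, is above its 4 other values, while the other 5 genes overlap between groups.

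The ratio of inducible to constitutive subunit, per exon length, was taken within each library. Psmb8 to Psmb5 stood at 1.20 and 1.27 in BTg, 0.834 and 1.16 in CKO and 1.44 and 0.923 in WT. Psmb9 to Psmb6 stood at 0.695 and 0.999 in BTg, 0.688 and 1.11 in CKO and 0.654 and 0.815 in WT. Psmb10 to Psmb7 stood at 3.08 and 4.53 in BTg, 2.93 and 3.55 in CKO and 2.93 and 2.94 in WT. Both BTg values of Psmb8 to Psmb5 exceeded both CKO values, and both BTg values of Psmb10 to Psmb7 exceeded both WT values, while the other pairs of groups overlapped. With 2 libraries a group an exact permutation test of a ratio cannot reach a p under 0.05, so none is given. The height of each ratio depends on the length used for each gene, while its order over libraries does not. Exon length was 3381 bases for Psmb8 and 899 for Psmb5, while their coding lengths were 828 and 792. It was 3660 for Psmb9 and 1872 for Psmb6, with coding lengths of 657 and 714. For Psmb10 and Psmb7 it was 1705 and 3421, with coding lengths of 819 and 831. Whether the inducible or the constitutive subunit was the more abundant cannot be read from these ratios.

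Sequence before the start of transcription is shown for members of both kinds, to set the constitutive Psmb5, Psmb6 and Psmb3 beside the inducible Psmb10. Each stretch was taken from RefSeq's annotation of the C57BL/6J reference (GRCm38.p6), not from NOD, and covers the part of the 250 bases before the start that no GENCODE M21 exon covers. Capitals mark matches, on either strand, to TGACNNNGC (the core of the antioxidant response element bound by the regulator Nfe2l1), the core of the interferon-stimulated response element, TTCNNNGAA (a STAT site) or CCAAT (the NF-Y box).
Psmb5 (chr14:54618023-54618245, minus strand): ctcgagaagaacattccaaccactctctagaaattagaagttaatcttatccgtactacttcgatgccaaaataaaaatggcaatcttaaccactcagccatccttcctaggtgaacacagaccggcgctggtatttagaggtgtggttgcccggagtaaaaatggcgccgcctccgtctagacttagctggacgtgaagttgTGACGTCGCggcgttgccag
Psmb6 (chr11:70525107-70525356, plus strand): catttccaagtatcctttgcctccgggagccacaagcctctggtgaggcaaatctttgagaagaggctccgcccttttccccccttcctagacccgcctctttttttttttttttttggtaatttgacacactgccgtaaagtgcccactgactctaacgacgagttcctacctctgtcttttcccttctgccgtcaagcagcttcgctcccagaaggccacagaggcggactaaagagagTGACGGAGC
Psmb3 (chr11:97703184-97703398, plus strand): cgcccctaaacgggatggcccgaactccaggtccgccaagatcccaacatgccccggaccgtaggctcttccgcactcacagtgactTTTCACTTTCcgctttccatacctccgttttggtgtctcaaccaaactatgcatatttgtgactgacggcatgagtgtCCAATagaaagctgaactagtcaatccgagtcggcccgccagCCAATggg
Psmb10 (chr8:105938445-105938642, minus strand): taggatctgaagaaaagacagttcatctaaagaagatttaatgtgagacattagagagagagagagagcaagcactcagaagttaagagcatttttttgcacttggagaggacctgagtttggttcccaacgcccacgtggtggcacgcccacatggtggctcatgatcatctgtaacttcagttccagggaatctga

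Psmb5 and Psmb6 each hold 1 match to TGACNNNGC, at TGACGTCGC and TGACGGAGC. Psmb3 holds TTTCACTTTC, the core of the interferon-stimulated response element read on the opposite strand, and 2 CCAAT boxes. Psmb10 holds none of the 4 in the stretch shown. Counted over the whole window of 250 bases before to 50 after the start, for the 41 members with a window in the table, that core was found in 5 (12.2%), against 3.49% of 27025 promoters. It was found in Psmd4, Psmd9, Psmb3, Psmg4 and Psme1 and in none of the 3 immunoproteasome genes. TGACNNNGC was found in 6 members (14.6%), against 12.5% of all promoters, TTCNNNGAA in 3 (7.32%), against 8.47%, with Psmb8 among them, and CCAAT in 14 (34.1%), against 37.9%. These matches are descriptions of the letters and not of binding.

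The activators came in different patterns. Psme1 and Psme2, which form the interferon-inducible cap, overlapped between all pairs of groups. Psme1 had 94.9 and 82.8 FPKM in BTg, 109.9 and 86.7 in CKO and 91.5 and 81.0 in WT. Psme2 had 132 and 95.1 FPKM in BTg, 169.6 and 106 in CKO and 143 and 97.8 in WT. Both followed the core in having the first library of each group above the second. Psme3, a nuclear activator that acts without ubiquitin, had the opposite order of libraries, at 37.7 and 40.0 FPKM in BTg, 40.1 and 49.3 in CKO and 31.6 and 52.4 in WT. Psme4, a large single-chain activator that also binds acetylated histones, stood at 22.1 and 23.5 FPKM in BTg, 20.6 and 23.9 in CKO and 18.4 and 23.8 in WT. Its log2 difference for BTg against WT was 0.12 (SE 0.26, limma adjusted p = 1), the largest of the activators in that comparison.

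Psme2b, a copy of Psme2 without introns, had the widest gap between the CKO libraries of all 48 members. It had 36.1 and 42.3 FPKM in BTg, 16.4 and 40.0 in CKO and 35.5 and 41.9 in WT, so that CKO replicate 1 alone was low. Its log2 difference was 0.58 (SE 0.44, limma adjusted p = 0.724) for BTg against CKO and -0.57 (SE 0.44, limma adjusted p = 1) for CKO against WT. Without CKO replicate 1 these were -0.03 and 0.05. It shares exon sequence with 9930111J21Rik1 and resembles Psme2 in sequence, so its reads are uncertain. Psmf1, an inhibitor of the core, stood at 2.47 and 2.72 FPKM in BTg, 2.22 and 2.99 in CKO and 1.85 and 3.06 in WT. Its log2 differences were 0.00 (SE 0.25) for BTg against CKO, 0.08 (SE 0.25) for BTg against WT and 0.07 (SE 0.25) for CKO against WT, with limma adjusted p = 0.998, 1 and 1.

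Psmc3ip, outside the proteasome, had 3.96 and 3.30 FPKM in BTg, 7.10 and 4.12 in CKO and 4.53 and 3.53 in WT. Both BTg libraries were below both CKO libraries, with a log2 difference of -0.48 (SE 0.28, limma adjusted p = 0.671), and for CKO against WT the difference was 0.36 (SE 0.28, limma adjusted p = 1). It overlaps Mlx. The cell cycle sum given above was likewise higher in both CKO than in both BTg libraries; its part in these values was not tested. Of the 49 members 15 share exon sequence with another gene, and for these the division of reads is uncertain.

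Genes linked to the proteasome did not pass either. Of 19 cofactors and regulators tested, among them Adrm1, Pomp, Usp14, Vcp and Nfe2l1, limma called 0 in each comparison. Over all genes it called 0.0185% in BTg against CKO, 0.0185% in BTg against WT and 0% in CKO against WT. Ngly1, an activator of Nfe2l1, was the single gene of the 19 at unadjusted p under 0.05 (0.0261 by limma, BTg against CKO). The median log2 difference of the 19 was -0.04 for BTg against CKO, with 11 lower, 0.02 for BTg against WT, with 7 lower, and 0.10 for CKO against WT, with 5 lower. Over all genes 43.9%, 45.5% and 54.6% were lower in the same comparisons. Pomp, the maturation factor of the core, was like the core genes, at 12.4 and 7.85 FPKM in BTg, 22.6 and 10.6 in CKO and 13.8 and 10.4 in WT. Nfe2l1, the factor that raises proteasome genes when the proteasome is inhibited, was not, at 17.2 and 16.3 FPKM in BTg, 15.8 and 18.5 in CKO and 14.3 and 17.8 in WT. By limma 8.79% of all genes had unadjusted p under 0.05 in BTg against CKO, 1.62% in BTg against WT and 4.2% in CKO against WT. None of the 5 ubiquitin genes, nor of 8 genes of interferon-driven induction and peptide transport, passed limma's test in any comparison, with 0 at unadjusted p under 0.05. In that last list Irf1, an interferon-induced factor that drives Psmb9, had 59.0 and 57.4 FPKM in BTg, 40.7 and 45.2 in CKO and 49.6 and 41.7 in WT. Irf1 did not overlap between BTg and CKO or between BTg and WT, with log2 differences of 0.43 (SE 0.27, limma adjusted p = 0.689) and 0.35 (SE 0.27, limma adjusted p = 1). Pomp, Nfe2l1, Ngly1, Irf1 and Tap1 were named after their values were seen.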

How the data were processed

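The authors deposited 1 table of FPKM values for 6 libraries. Per the submitters' processing notes, reads were handled with Trimmomatic 0.38, HISAT2 2.1.0 and featureCounts 1.6.0 on GRCm38. For settings, annotation release and strand the entry is: not given in the sources used here. All 28914 identifiers matched GENCODE M21. With the median span of each gene's transcripts, introns included, as its length, 100.0% of values above 0 were whole reads within 0.01, against 21.2 to 22.9% with merged exon length. The deposited FPKM therefore divide by that span. The span is 2.19-fold the exon length at the median member, and from 0.52-fold to 27.4-fold over the members. For 8 members it is below exon length, among them Psmb6, Psmb8, Psmb9 and Psmb10. This affects levels between genes, the filter and the pseudocount, not the ratio of 1 gene between libraries.

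Values were transformed to log2(FPKM + 1). A gene entered if 2 or more libraries reached 1 FPKM. Such genes went into 1 limma fit of all 6 libraries without a block (R 4.3.3, limma 3.58.1, eBayes with a trend), with Benjamini-Hochberg adjusted p under 0.05 over 10798 genes as the threshold. The fit was also run on simulated data with noise independent between genes and libraries. No result given here rests on that run. Differences on this scale understate changes of low genes. Groups came from the sample titles; both BTg titles carry number 1 outside their brackets, so replicate 2 of BTg rests on the name in brackets. Members and lists were chosen with earlier results of these data known. Values in every library are given for the catalytic subunits, activators, inhibitor, Psma8 and Psmc3ip, for the 3 members with the smallest p in a comparison and, per class, the member with the largest difference. The symbols AI314180 and Paaf1 of the linked list matched no gene symbol in the table, so nothing was analysed under these names. Figures were drawn with matplotlib 3.10.9. Alternatives were another pseudocount, other filters, quantile normalization and median centring, no trend, a replicate block, limma voom on recovered reads, exon length and each library left out.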

Additional observations from a re-analysis of the deposited data

How the results depend on the processing

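No proteasome gene passed the threshold under any alternative run, and class medians kept their direction except when libraries were left out. Over all genes, 2 passed in BTg against CKO, 2 in BTg against WT and 0 in CKO against WT. Without the filter these counts were 81, 46 and 65. At least 5 FPKM gave 5 in BTg against CKO and 1 in BTg against WT and left no core assembly chaperone. Quantile normalization gave 0 in each of the comparisons of BTg, limma voom 7 and 4, and merged exon length 9 in BTg against CKO. Leaving out 1 library at a time gave 0 to 255 in BTg against CKO, 0 to 0 in BTg against WT and 0 to 81 in CKO against WT, the highest without CKO replicate 2; the lone sample of a group was then assumed to vary like the others.

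With the replicate block 0 genes passed in each comparison. Labels do not say that numbers pair the libraries; deviations of same-numbered libraries correlated at 0.456 for BTg and CKO, 0.469 for BTg and WT and 0.173 for CKO and WT across 10798 genes.

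With 1 library left out, the median of regulatory genes in BTg against CKO ran from -0.47 to -0.0954. In CKO against WT the median of immunoproteasome genes ran from -0.0035 to 0.55, of regulatory genes from 0.0427 to 0.40 and of core assembly chaperones from -0.0485 to 0.32. Log2 differences of single genes that changed sign ranged as follows: in BTg against CKO Psmb8 -0.43 to 0.0668, Psme2b -0.0318 to 1.20 and Psmf1 -0.15 to 0.16. They ranged in BTg against WT Psmb8 -0.48 to 0.37, Psmb10 -0.22 to 0.15, Psmb3 -0.69 to 0.0899, Psmd7 -0.51 to 0.075, Psme4 -0.0606 to 0.29, Psmf1 -0.18 to 0.33 and Psmc3ip -0.26 to 0.0269, and in CKO against WT Psmb8 -0.30 to 0.55, Psmb10 -0.0035 to 0.74, Psmb2 -0.013 to 0.87, Psma5 -0.21 to 0.87, Psmd10 -0.14 to 0.33, Psme2b -1.18 to 0.0503, Psmf1 -0.18 to 0.33 and Psmg1 -0.0751 to 0.50. Quantile normalization gave 0.11 for Psmb8 and -0.0038 for Psmf1 in BTg against CKO and -0.15 for Psmb8 in CKO against WT. With the deposited gene length the mean ratio over the 6 libraries was 5.41 for Psmb8 to Psmb5, 0.523 for Psmb9 to Psmb6 and 51.4 for Psmb10 to Psmb7, against 1.14, 0.826 and 3.33 with exon length. Apart from left-out libraries and length, the cause of these shifts was not tested. With 2 libraries a group, intervals of single members are wide.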
